A study of Oryza sativa Japonica Group with 10 samples.

Results

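The 4 genes described here encode basic helix-loop-helix (bHLH) transcription factors tied to jasmonate (JA) signaling in rice, and were measured across 10 shoot RNA-seq libraries: OsMYC2 (LOC_Os10g42430), OsbHLH006 (LOC_Os04g23550), OsbHLH148 (LOC_Os03g53020) and OsbHLH062 (LOC_Os07g43530). They were chosen by locus ID, and are 4 of the 55689 gene IDs in the files. All 4 passed the filter on low counts, which kept 24850 genes for testing. Shoots of 4-leaf plants were sampled. The groups are OsJAZ1-OE under drought stress (2 libraries), ZH11 under drought stress (2 libraries), OsJAZ1-OE under normal conditions (3 libraries) and ZH11 under normal conditions (3 libraries). ZH11 is the wild-type japonica cultivar Zhonghua 11. OsJAZ1-OE is ZH11 that carries the OsJAZ1 coding sequence under the OsLEA3 promoter, which is itself drought-inducible. Which transgenic line was sequenced, and how many plants made up a library, is not stated. Soil water was held at 10 to 15% for the drought groups. For each genotype the authors set aside a further drought replicate over a low correlation, and it was not analysed here.

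In the JA pathway, JAZ proteins bind and repress bHLH factors of the MYC type. When the active hormone, JA-isoleucine, builds up, the COI receptor marks JAZ proteins for breakdown and the factors are released. Targets of the released factors include JAZ genes, which closes a feedback loop. OsMYC2 is the rice counterpart of the Arabidopsis master regulator MYC2. OsbHLH006, also called RERJ1, is an early JA-responsive gene that responds to wounding and drought. OsbHLH148 has been linked to drought tolerance and its protein binds OsJAZ1, and OsbHLH062 has been linked to salt tolerance through OsJAZ9.

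The positions are those of the authors' files; the sources used here name no genome build. OsMYC2 lies on chromosome 10 from 22857123 to 22859886 on the plus strand, with 1 listed transcript of 2764 bases. OsbHLH006 lies on chromosome 4 from 13466327 to 13468869 on the minus strand, with 3 transcripts of 1316, 2392 and 1400 bases. OsbHLH148 lies on chromosome 3 from 30406830 to 30409447 on the plus strand, with 1 transcript of 1286 bases. OsbHLH062 lies on chromosome 7 from 26039678 to 26042226 on the minus strand, with 2 transcripts of 1248 and 1325 bases. OsbHLH148 is overlapped by LOC_Os03g53010 on the opposite strand, and since the counting is not stated to use strand, fragments of the pair cannot be told apart in the overlap.

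The libraries held 32396154 to 34027909 estimated fragments. OsJAZ1 (LOC_Os04g55920), the overexpressed gene, was at 1388 and 1177 FPKM (fragments scaled to transcript length and to library size) under drought in OsJAZ1-OE and at 147 and 126 FPKM in ZH11. Under normal conditions it was at 1200 to 1281 FPKM in OsJAZ1-OE and at 110 to 117 FPKM in ZH11, so every genotype label matched. Its log2 fold change under drought in OsJAZ1-OE was −0.06, so the overexpression was already present without drought. The shoot markers, 1 Rubisco small subunit gene and 2 antenna protein genes, summed to 6918 to 7450 FPKM in OsJAZ1-OE and 7395 to 7680 FPKM in ZH11 under drought. Under normal conditions their sums were 8533 to 9663 FPKM in OsJAZ1-OE and 10272 to 10894 FPKM in ZH11, and the part of this shift in the results below was not tested. The 3 root markers summed to 4.93 to 11.6 FPKM over all libraries, nearly all of it from the silicon transporter gene Lsi1. The 2 ZH11 drought libraries stand apart from each other at OsbHLH006 and OsbHLH148, and less so at OsMYC2. The ZH11 drought results of the 4 genes and of the gene lists are therefore given with and without each of these libraries. A fit without either of them holds 1 ZH11 drought library, so its p values carry no spread between ZH11 drought samples. In whole shoots, fewer cells of a type and less RNA per cell cannot be told apart.

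OsbHLH006 and OsbHLH148 were higher under drought, and OsMYC2 and OsbHLH062 differed little between the groups. Over the 10 libraries the highest FPKM was 87.9 times the lowest for OsbHLH006, 21.2 times for OsbHLH148, 1.66 times for OsMYC2 and 1.59 times for OsbHLH062. In every normal library the order of the levels by FPKM was OsMYC2, OsbHLH148, OsbHLH062 and OsbHLH006, and the ranges of neighbours in that order did not overlap (32.7 to 40.1, 17.0 to 21.8, 6.56 to 8.31 and 1.37 to 4.06 FPKM). In ZH11 drought replicate 1 the order by FPKM was OsbHLH148, OsbHLH006, OsMYC2 and OsbHLH062, whereas in replicate 2 it was OsMYC2, OsbHLH148, OsbHLH006 and OsbHLH062. In both OsJAZ1-OE drought libraries it was OsbHLH148, OsMYC2, OsbHLH006 and OsbHLH062. The lengths behind the FPKM values are not the listed ones (the OsMYC2 values imply about 1368 bases). Counts per listed length gave the same order in all 6 normal libraries and in ZH11 drought replicate 1. In the other 3 drought libraries they put OsbHLH148 first, then OsMYC2, OsbHLH062 and OsbHLH006.

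**Figure D1:**
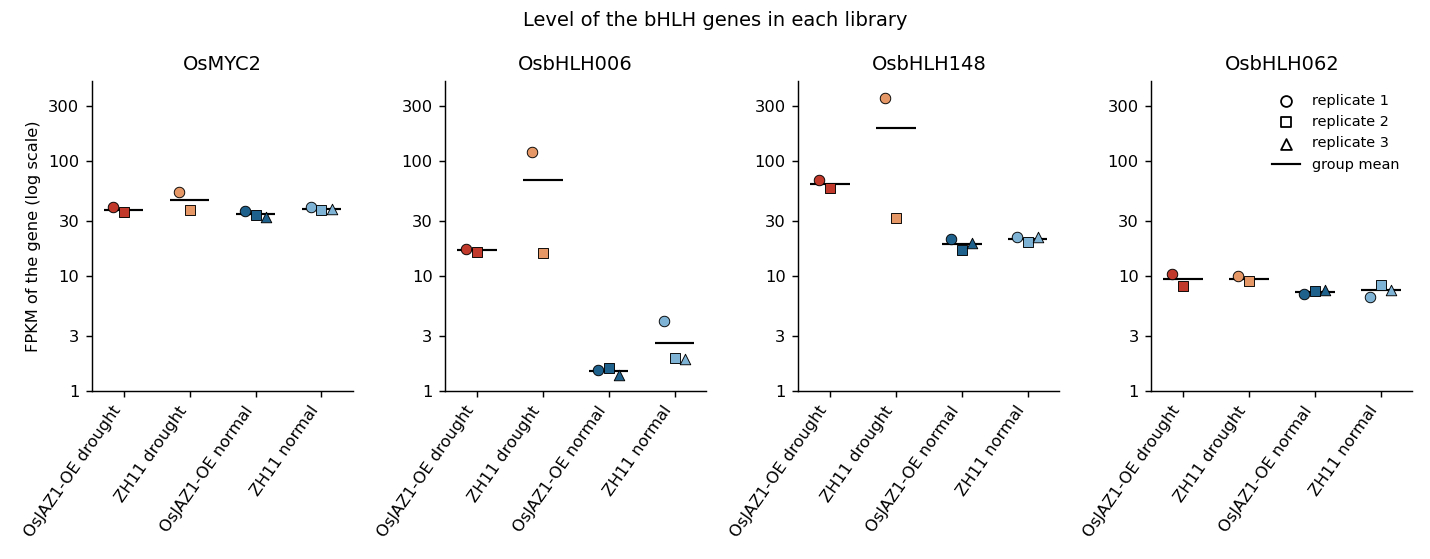
FPKM of the 4 bHLH genes in each library, on a log scale, with a symbol per replicate and a line at the group mean. For OsbHLH006 and OsbHLH148 the 2 ZH11 drought libraries are far apart (121 against 15.9 and 359 against 32.0 FPKM), while the 2 OsJAZ1-OE drought libraries lie close together.

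OsbHLH006, the early JA-responsive factor, had the largest fold changes under drought of the 4 genes in both genotypes. It was at 17.4 and 16.2 FPKM in OsJAZ1-OE drought, and at 121 and 15.9 FPKM in ZH11 drought. In OsJAZ1-OE normal it was at 1.51, 1.57 and 1.37 FPKM, and in ZH11 normal at 4.06, 1.93 and 1.88 FPKM. Every drought library lay above every normal library of its genotype, as for 29.8% of all tested genes in OsJAZ1-OE and 31.1% in ZH11. ZH11 drought replicate 1 lay far above the other 9 libraries. In counts, the normal libraries held only 27.8 to 89.2 estimated fragments of this gene, so its basal level is the least precise of the 4.

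OsbHLH006 rose under drought by a log2 fold change of 3.66 in OsJAZ1-OE (SE 0.82, adjusted p = 0.0049) and of 4.90 in ZH11 (SE 0.73, adjusted p = 0.00031, both from edgeR's quasi-likelihood test with Benjamini-Hochberg adjustment over all 24850 genes). In ZH11 it was 2.48 without drought replicate 1 and 5.75 without replicate 2. The size of the ZH11 change therefore depends on the library, and its direction does not. Each of these fits holds 1 ZH11 drought library, so it cannot show whether the call holds over the spread between ZH11 drought samples. Of all tested genes, 19.1% rose in OsJAZ1-OE and 21.6% in ZH11 at an adjusted p under 0.05. The shares that also had a log2 fold change of at least 1 were 4.36% and 5.33%.

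OsbHLH148, whose protein binds OsJAZ1, was at 68.8 and 58.1 FPKM in OsJAZ1-OE drought, and at 359 and 32.0 FPKM in ZH11 drought. In OsJAZ1-OE normal it was at 21.1, 17.0 and 19.2 FPKM, and in ZH11 normal at 21.8, 19.9 and 21.8 FPKM. The drought libraries again lay above all normal libraries of their genotype, as for 29.8% of all tested genes in OsJAZ1-OE and 31.1% in ZH11. The 2 OsJAZ1-OE drought libraries fell between the 2 of ZH11. The lower ZH11 drought library was 1.47 times the highest ZH11 normal library, and the lower OsJAZ1-OE drought library was 2.75 times the highest OsJAZ1-OE normal library.

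With all libraries OsbHLH148 rose in ZH11 by a log2 fold change of 3.14 (SE 0.65, adjusted p = 0.0025 in edgeR), and had 1.60 in OsJAZ1-OE (SE 0.65, adjusted p = 0.073), which did not pass. In OsJAZ1-OE the test borrows its error from all groups. When only the OsJAZ1-OE libraries were fitted, the change of 1.60 passed (SE 0.09, adjusted p = 1.3e-05 in edgeR), and it passed without ZH11 drought replicate 1 (adjusted p = 1.1e-06) and without replicate 2 (adjusted p = 8.2e-07). In ZH11 it was 0.59 without drought replicate 1 (adjusted p = 0.0041) and 4.02 without replicate 2 (adjusted p = 7.2e-09).

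LOC_Os03g53010, which overlaps OsbHLH148 on the other strand, had 1173 and 976 estimated fragments in OsJAZ1-OE and 1938 and 1351 in ZH11 under drought, and 959 to 1059 in OsJAZ1-OE and 1104 to 1252 in ZH11 under normal conditions. OsbHLH148 itself had 1943 and 1861 fragments in OsJAZ1-OE and 11448 and 1063 in ZH11 under drought, and 556 to 702 in OsJAZ1-OE and 651 to 751 in ZH11 under normal conditions. The overlapping gene was thus also highest in ZH11 drought replicate 1, over a much smaller range. It rose in ZH11 by a log2 fold change of 0.47 (SE 0.13, adjusted p = 0.014 in edgeR), and the part of shared fragments in either gene was not tested.

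OsMYC2, the MYC2 counterpart, was at 39.7 and 36.0 FPKM in OsJAZ1-OE drought, and at 54.1 and 38.0 FPKM in ZH11 drought. In OsJAZ1-OE normal it was at 36.7, 33.8 and 32.7 FPKM, and in ZH11 normal at 40.1, 37.3 and 38.0 FPKM. The drought and normal libraries overlapped in both genotypes, and only ZH11 drought replicate 1 stood above the rest. The log2 fold change under drought was 0.12 in OsJAZ1-OE (95% interval −0.16 to 0.40, adjusted p = 0.48 in edgeR) and 0.21 in ZH11 (95% interval −0.07 to 0.48, adjusted p = 0.20). In ZH11 it was −0.10 without drought replicate 1 (adjusted p = 0.38) and 0.46 without replicate 2, which passed (adjusted p = 0.0014).

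OsbHLH062, the factor linked to OsJAZ9, was at 10.5 and 8.26 FPKM in OsJAZ1-OE drought, and at 9.93 and 9.02 FPKM in ZH11 drought. In OsJAZ1-OE normal it was at 6.97, 7.34 and 7.61 FPKM, and in ZH11 normal at 6.56, 8.31 and 7.57 FPKM. The drought libraries lay just above the normal ones in both genotypes, as they did for 29.8% of all tested genes in OsJAZ1-OE and 31.1% in ZH11. The log2 fold change under drought was 0.31 in OsJAZ1-OE (SE 0.11, adjusted p = 0.049 in edgeR) and 0.32 in ZH11 (SE 0.11, adjusted p = 0.036). Both calls are fragile, since DESeq2 gave an adjusted p of 0.077 in OsJAZ1-OE and 0.053 in ZH11. The ZH11 call also ended without ZH11 drought replicate 1 (0.29, adjusted p = 0.14 in edgeR) and without replicate 2 (0.36, adjusted p = 0.084). The OsJAZ1-OE call ended without either of the same libraries as well (0.31 each, adjusted p = 0.056 in both fits).

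Under drought, whether OsJAZ1-OE was lower than ZH11 at these genes depended on a single library. With all libraries the log2 fold change was −2.18 for OsbHLH006 (SE 0.71, adjusted p = 0.13 in edgeR), −1.71 for OsbHLH148 (SE 0.70, adjusted p = 0.22), −0.30 for OsMYC2 (SE 0.14, adjusted p = 0.27) and −0.07 for OsbHLH062 (SE 0.12, adjusted p = 0.83). None of the 4 passed in edgeR, where 2.55% of all tested genes passed as higher and 1.13% as lower. Before adjustment the edgeR p values were 0.011 for OsbHLH006, 0.033 for OsbHLH148, 0.052 for OsMYC2 and 0.61 for OsbHLH062. The share of all tested genes at an unadjusted p under 0.05 is not given for this comparison. None of the 4 passed in DESeq2 or limma-trend after adjustment. The OsJAZ1-OE and ZH11 libraries overlapped for all 4 genes.

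Without ZH11 drought replicate 1, the log2 fold change was 0.85 for OsbHLH148, 0.24 for OsbHLH006, 0.0025 for OsMYC2 and −0.03 for OsbHLH062. Without ZH11 drought replicate 2, it was −2.58 for OsbHLH148, −3.03 for OsbHLH006 and −0.55 for OsMYC2, and OsbHLH062 was not higher in OsJAZ1-OE either. OsbHLH148 thus differed in opposite directions depending on which ZH11 drought library was left out. In these fits the lone ZH11 drought library is assumed to vary like the libraries of the other groups.

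**Figure D2:**
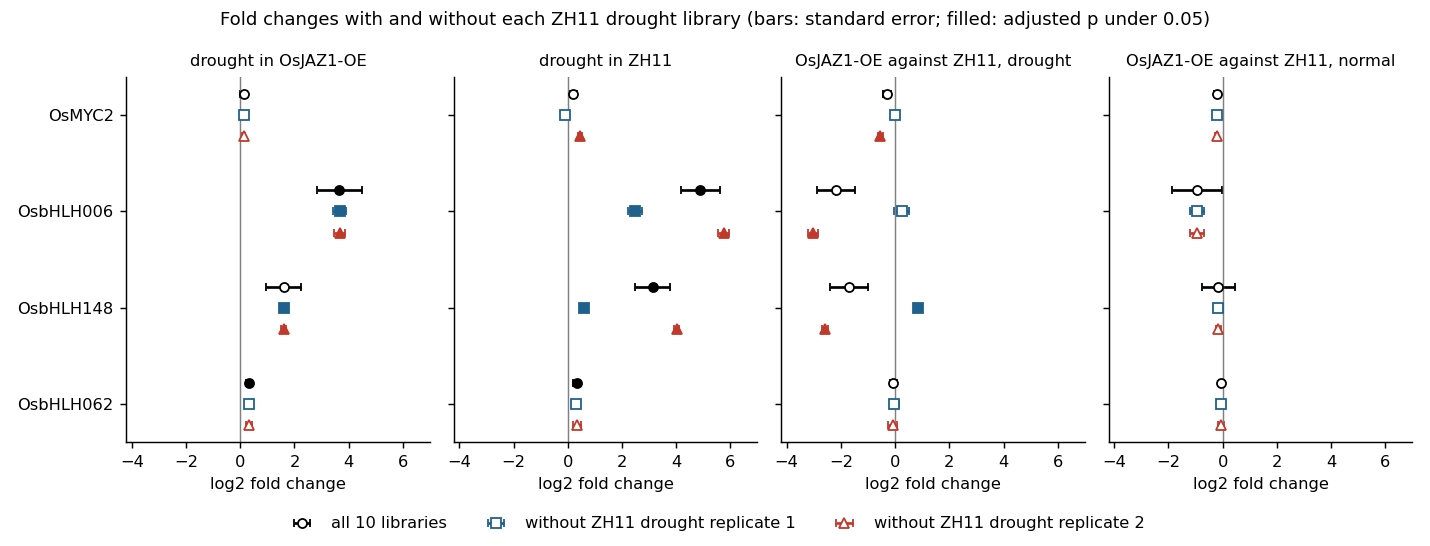
Log2 fold changes of the 4 bHLH genes in 4 comparisons, with all 10 libraries and without each ZH11 drought library. Bars are standard errors and filled symbols passed an adjusted p under 0.05 in edgeR. For OsbHLH148 between OsJAZ1-OE and ZH11 under drought the value is −1.71 with all libraries, 0.85 without ZH11 drought replicate 1 and −2.58 without replicate 2.

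Under normal conditions none of the 4 genes passed between OsJAZ1-OE and ZH11 in edgeR, where 2.35% of all tested genes passed as higher and 1.48% as lower. None of the 4 had an unadjusted p under 0.05 in edgeR either. The log2 fold changes were −0.94 for OsbHLH006 (95% interval −2.98 to 1.10), −0.22 for OsMYC2 (−0.46 to 0.03), −0.17 for OsbHLH148 (−1.52 to 1.19) and −0.05 for OsbHLH062 (−0.28 to 0.17). All OsJAZ1-OE libraries lay below all ZH11 libraries for OsbHLH006 and OsMYC2, as they did for 11.1% of all tested genes. With n = 3 per group, the intervals of OsbHLH006 and OsbHLH148 do not exclude changes of more than 2-fold in either direction. The error of each gene is taken from all groups, so these intervals also carry the gap between the ZH11 drought libraries. Within the normal groups the highest OsbHLH148 library was only 1.25 times the lowest in OsJAZ1-OE and 1.09 times in ZH11.

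The drought responses of the genotypes were set against each other as OsJAZ1-OE minus ZH11. The difference on the log2 scale was −1.23 for OsbHLH006 (95% interval −3.84 to 1.37), −1.54 for OsbHLH148 (−3.58 to 0.49), −0.09 for OsMYC2 (−0.48 to 0.31) and −0.01 for OsbHLH062 (−0.37 to 0.34). None passed in edgeR (lowest adjusted p = 0.70, for OsbHLH148; none at an unadjusted p under 0.05) or in DESeq2. Of the 24850 genes tested in edgeR 0% passed (2097 genes at an unadjusted p under 0.05). In DESeq2 105 passed of the 17141 genes that were given an adjusted p. Without ZH11 drought replicate 1 the difference was 1.19 for OsbHLH006 (adjusted p = 0.42 in edgeR) and 1.02 for OsbHLH148 (adjusted p = 0.13). Without replicate 2 it was −2.09 for OsbHLH006 (adjusted p = 0.026) and −2.42 for OsbHLH148 (adjusted p = 7.6e-05), so the sign of the difference changed with the library for both genes.

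The gap between the ZH11 drought libraries was rare among genes. The log2 ratio of replicate 1 to replicate 2 was 3.41 for OsbHLH148, a ratio reached by 14 of the 24850 tested genes, and 3.22 for OsbHLH006, reached by 18. It was 0.55 for OsMYC2, reached by 830 genes, and 0.07 for OsbHLH062, reached by 8284. Between the OsJAZ1-OE drought libraries the same ratios were 0.06, 0.05, 0.02 and 0.27. Over all tested genes the median ratio was 0.00 in OsJAZ1-OE and −0.02 in ZH11, and a log2 ratio of at least 1 was found in 0.137% of genes in OsJAZ1-OE and 1.08% in ZH11.

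Genes near the bHLH factors in the pathway showed the gap in part. The JAZ genes encode repressors of JA signaling. All 10 tested JAZ genes other than OsJAZ1 were higher in replicate 1 of ZH11 drought, and 9 of them were also higher in replicate 1 of OsJAZ1-OE drought. Of the 24850 tested genes 12288 were higher in replicate 1 in OsJAZ1-OE and 11473 in ZH11. The median ratio of the JAZ genes on the log2 scale was 0.15 in OsJAZ1-OE drought and 1.00 in ZH11 drought. In ZH11 the ratios of OsJAZ3, OsJAZ5, OsJAZ7 and OsJAZ8 were only 0.16 to 0.26. OsJAZ10 (LOC_Os03g08330) was at 82.8 and 67.6 FPKM in OsJAZ1-OE drought and at 370 and 51.8 FPKM in ZH11 drought. OsJAZ13 (LOC_Os10g25230) was at 5.76 and 4.61 FPKM in OsJAZ1-OE drought and at 32.7 and 3.65 FPKM in ZH11 drought. The 16 tested genes of JA synthesis and perception had a median ratio of 0.06 in ZH11 drought, with 10 of them higher in replicate 1.

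The 6 listed drought genes of the qPCR panel went both ways between the ZH11 drought libraries. OsCCD1, which is also in that panel, was not listed and was not analysed here. OsbHLH006 and OsbHLH148 are in the panel too and are described above with the bHLH genes. By qPCR, the paper reported both as lower in OsJAZ1-OE than in ZH11 under drought. OsDREB1B (LOC_Os09g35010), a factor of the cold and drought response, was at 23.1 and 16.7 FPKM in OsJAZ1-OE drought and at 162 and 1.91 FPKM in ZH11 drought, a log2 ratio of 5.62 in ZH11. Its neighbour OsDREB1A (LOC_Os09g35030) had a ratio of 4.28 and SNAC1 (LOC_Os03g60080), a NAC factor of stomatal closure, of 1.37. The abscisic acid-responsive genes RAB21 (LOC_Os11g26790), a dehydrin, and OsLEA3 (LOC_Os05g46480), a late-embryogenesis protein, had ratios of −1.47 and −1.28. OsLEA3 was at 78.6 and 65.8 FPKM in OsJAZ1-OE drought and at 80.0 and 198 FPKM in ZH11 drought. OsNCED4 (LOC_Os07g05940), of abscisic acid synthesis, was at 23.1 and 6.97 FPKM in OsJAZ1-OE drought and at 25.9 and 15.9 FPKM in ZH11 drought, with a larger ratio in OsJAZ1-OE (1.505, reached by 10 genes) than in ZH11 (0.75, reached by 457). Replicate 1 was therefore not higher at every drought gene, nor was every gap larger in ZH11.

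**Figure D3:**
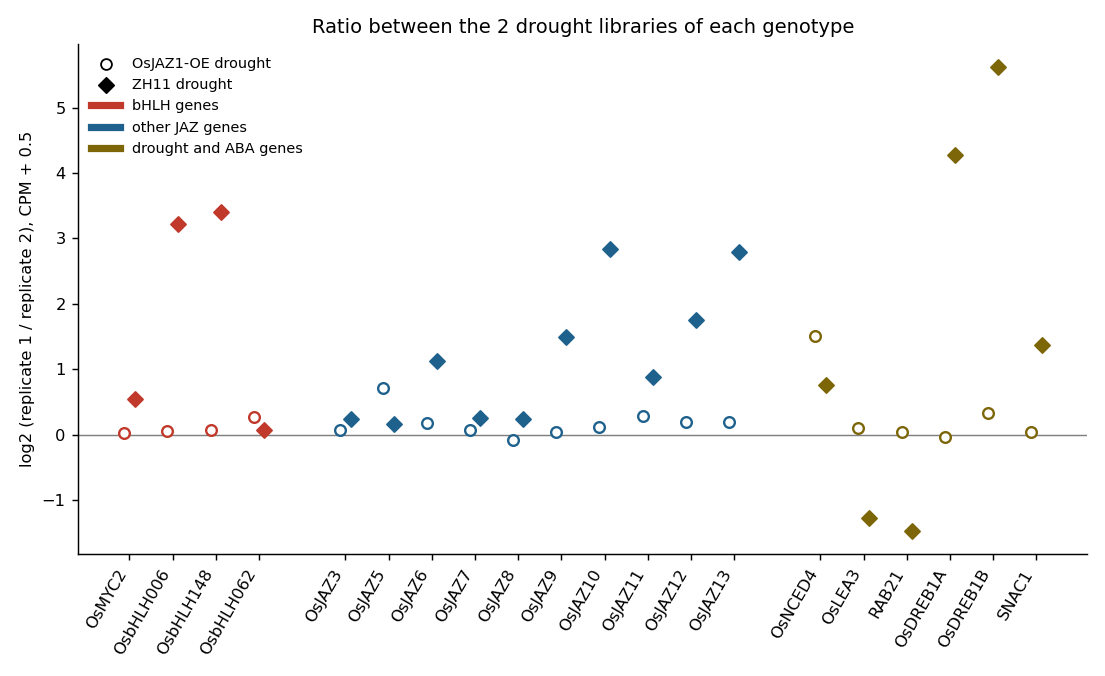
Log2 ratio of replicate 1 to replicate 2 (CPM plus 0.5) for the bHLH genes, the other JAZ genes and the drought and abscisic acid genes. Open circles are OsJAZ1-OE drought and filled diamonds ZH11 drought. OsbHLH006 and OsbHLH148 have ratios of 3.22 and 3.41 in ZH11 and of 0.05 and 0.06 in OsJAZ1-OE, and OsLEA3 and RAB21 lie below 0 in ZH11.

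Other genes of the JA pathway were also counted in each comparison. Of 14 listed JAZ genes other than OsJAZ1, 10 were tested. Of these, 3 rose under drought in OsJAZ1-OE (median log2 fold change 0.57 over the 10) and 7 rose in ZH11 (median 1.07), with none lower. Over all tested genes 19.1% rose in OsJAZ1-OE and 21.6% in ZH11, and the medians were near 0. OsJAZ8 (LOC_Os09g26780) rose by 0.57 in OsJAZ1-OE (SE 0.10, adjusted p = 0.00092 in edgeR) and 0.92 in ZH11 (SE 0.10, adjusted p = 2.6e-05), and OsJAZ12 (LOC_Os10g25290) by 1.70 (SE 0.40, adjusted p = 0.0068) and 2.50 (SE 0.40, adjusted p = 0.00051). In ZH11 OsJAZ8 was at 0.79 without drought replicate 1 and 1.03 without replicate 2, and OsJAZ12 at 1.35 and 3.14. The most expressed JAZ gene that did not pass was OsJAZ7 (LOC_Os07g42370) in both genotypes, at 0.04 in OsJAZ1-OE (adjusted p = 0.74 in edgeR) and 0.21 in ZH11 (adjusted p = 0.087), where it passed without ZH11 drought replicate 2 (0.33, adjusted p = 0.026).

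Without ZH11 drought replicate 1 the median log2 fold change of the JAZ genes under drought was 0.57 in OsJAZ1-OE and 0.44 in ZH11. Without replicate 2 it was 0.57 in OsJAZ1-OE and 1.41 in ZH11, so only the ZH11 median moved. Between OsJAZ1-OE and ZH11 under drought only OsJAZ8 of the JAZ genes passed, with a log2 fold change of −0.44 (SE 0.10, adjusted p = 0.046 in edgeR). Without ZH11 drought replicate 1 none of the 10 passed and the median was 0.30, and without replicate 2 there were 5 lower genes and the median was −0.88. Over all tested genes the count lower in OsJAZ1-OE was 282 with all libraries, 169 without replicate 1 and 603 without replicate 2.

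Of 19 listed genes of JA synthesis and perception, 16 were tested. In OsJAZ1-OE 3 rose and 4 fell under drought (median log2 fold change −0.05), and in ZH11 2 rose and 6 fell (median −0.18). In ZH11 the median was −0.28 without drought replicate 1 and −0.10 without replicate 2. Of all tested genes 20% fell in OsJAZ1-OE and 22.8% in ZH11. The lowest adjusted p of the list was that of LOC_Os02g10120, which rose by 1.71 in OsJAZ1-OE (SE 0.08, adjusted p = 7.8e-08 in edgeR) and 1.78 in ZH11 (SE 0.08, adjusted p = 3.9e-08). The gene of the JA-isoleucine synthetase, OsJAR1 (LOC_Os05g50890), fell by 0.50 on the log2 scale in OsJAZ1-OE (adjusted p = 0.00012) and by 0.60 in ZH11 (adjusted p = 2.5e-05). Without drought replicate 1 and without replicate 2 the ZH11 values were 1.84 and 1.71 for LOC_Os02g10120, and −0.65 and −0.54 for OsJAR1. The most expressed gene of the list that did not pass was OsAOC (LOC_Os03g32314), the allene oxide cyclase of JA synthesis, in OsJAZ1-OE (−0.08, adjusted p = 0.38 in edgeR) and the receptor gene OsCOI1a (LOC_Os01g63420) in ZH11 (0.05, adjusted p = 0.61). None of the 16 genes passed between OsJAZ1-OE and ZH11 in edgeR in either condition, while without ZH11 drought replicate 2, 2 of them were lower under drought.

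The 2 listed genes of JA-isoleucine breakdown rose in ZH11 and 1 of them in OsJAZ1-OE. Neither passed between OsJAZ1-OE and ZH11 under drought with all libraries or without ZH11 drought replicate 1, and both were lower in OsJAZ1-OE without replicate 2. Of 4 listed genes tied to the bHLH factors in earlier work, 3 were tested, and none passed in OsJAZ1-OE while 1 rose and 1 fell in ZH11. These counts were 1 risen in OsJAZ1-OE and none passing in ZH11 without ZH11 drought replicate 1, and without replicate 2, 1 rose in OsJAZ1-OE while 1 rose and 1 fell in ZH11. None of the 3 passed between the genotypes under drought in any of the 3 fits.

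The 6 listed genes of the qPCR panel were picked for these plants, so their direction is no independent evidence. With all libraries 5 rose in OsJAZ1-OE and all 6 in ZH11, with median log2 fold changes of 4.31 and 5.19. Without ZH11 drought replicate 1 the medians were 4.31 in OsJAZ1-OE and 3.12 in ZH11, so the order of the genotypes turned. Without replicate 2 they were 4.31 and 5.84. The lowest adjusted p values were those of OsLEA3 (5.24 in OsJAZ1-OE, adjusted p = 1.7e-06 in edgeR, and 6.89 in ZH11, adjusted p = 2.4e-07) and RAB21 (5.51, adjusted p = 2.3e-06, and 7.23, adjusted p = 5.1e-07). OsDREB1A did not pass in OsJAZ1-OE (2.34, adjusted p = 0.12), but did without ZH11 drought replicate 1 (adjusted p = 0.00060) and without replicate 2 (adjusted p = 0.00022). In ZH11 OsDREB1A rose by 3.28 with all libraries (adjusted p = 0.018 in edgeR), was at −1.59 without drought replicate 1 (adjusted p = 0.055) and at 4.26 without replicate 2 (adjusted p = 2.9e-06). None of the 6 passed between OsJAZ1-OE and ZH11 under drought in edgeR. Without ZH11 drought replicate 1, 2 of the 6 were lower and 2 were higher in OsJAZ1-OE, and without replicate 2, 3 were lower.

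The genes whose profiles over the 10 libraries were most like those of OsbHLH006 and OsbHLH148 were all highest in ZH11 drought replicate 1. Both factors peak in that library, so this follows from picking genes by profile and is no separate result. Likeness was measured over 21052 genes of at least 1 FPKM on average, as the root mean square difference of log2(FPKM + 0.1) values centred on each gene's mean. For OsbHLH006 the nearest were OsJAZ13 (difference 0.43), the C2H2 zinc finger gene ZOS3-22 (LOC_Os03g60570, 0.50) and the MAP3K gene LOC_Os01g50410 (0.52). ZOS3-22 was at 14.6 and 11.5 FPKM in OsJAZ1-OE drought, 77.9 and 8.95 in ZH11 drought, and at most 1.32 in the normal libraries.

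For OsbHLH148 the nearest were OsCML31 (LOC_Os01g72530, 0.19), a calmodulin-related calcium sensor, a U-box protein gene (LOC_Os02g33680, 0.19), WRKY71 (LOC_Os02g08440, 0.30) and, as the fifth, OsJAZ10 (0.33). OsCML31 was at 44.8 and 27.1 FPKM in OsJAZ1-OE drought and at 167 and 15.6 FPKM in ZH11 drought. A JAZ gene was therefore among the 5 nearest genes of both factors. The 5 genes nearest to OsMYC2 (differences 0.07 to 0.08) were all highest in ZH11 drought replicate 1 as well. Of the 5 nearest to OsbHLH062 (0.07 to 0.08), 4 were highest in OsJAZ1-OE drought replicate 1, as that gene was. These shared peaks likewise follow from the choice by profile. The sources used here annotate none of those 10 genes.

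The transcripts of OsbHLH006 did not keep the same shares between the drought libraries of either genotype. The 2392-base transcript took 31.1 and 29.1% of the estimated fragments in OsJAZ1-OE drought and 39.5 and 16.8% in ZH11 drought. In the normal libraries, with few fragments, it took 8.71 to 20.2% in OsJAZ1-OE and 15.6 to 31.5% in ZH11. Between the ZH11 drought libraries the 2392-base transcript was 22.8 times higher in replicate 1, the 1316-base transcript 6.74 times and the 1400-base transcript 10.8 times. Between the OsJAZ1-OE drought libraries the same ratios were 1.11, 0.864 and 3.76, and the 1400-base transcript took 12.6 and 3.46% of the fragments. The shares are the authors' estimates of which transcript a fragment came from, and groups were not tested for them. For OsbHLH062 the 1248-base transcript alone did not pass under drought (log2 fold change 0.28, adjusted p = 0.19 in OsJAZ1-OE, and 0.24, adjusted p = 0.25 in ZH11, in edgeR).

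**Figure D4:**
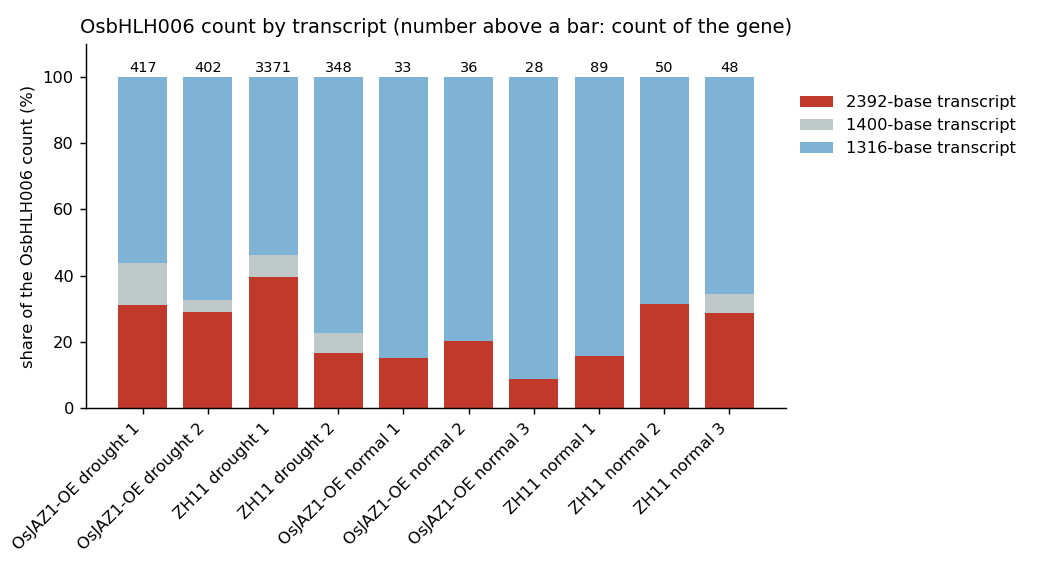
Share of the estimated OsbHLH006 fragments assigned to each of its 3 transcripts in every library, with the number of fragments of the gene above each bar. The 2392-base transcript takes 39.5% in ZH11 drought replicate 1 and 16.8% in replicate 2, against 31.1 and 29.1% in the OsJAZ1-OE drought libraries.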

How the data were processed

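Each library was 1 file of 101273 transcripts. Per the file headers and the paper, the authors deposited expected counts (estimated fragments) and FPKM, made on the BMKCloud platform from paired-end reads. The submitters' processing notes name TopHat2, Picard, SAMtools 0.1.18 and GATK without their roles, and neither build nor counting program is stated. Each library's deposited counts look scaled by a constant: 87.9 to 88.4% of gene sums (above 5, up to 1000) were whole multiples of a step, with a tolerance of 0.01. With it divided out, totals were 28610389 to 37796237. The paper calls the replicates biological, and the plants behind them are not described, so p values measure the spread between these samples.

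Counts and FPKM were summed per gene. Rounded counts were normalized by TMM, filtered by filterByExpr and tested by edgeR's quasi-likelihood test (edgeR 4.0.16 under R 4.3.3), fitting a mean for each group over all 10 libraries (common dispersion 0.0103). P values were adjusted by Benjamini-Hochberg over 24850 genes, and a gene passed at an adjusted p under 0.05. The fit was tested on simulated counts. These were drawn with the same dispersion for every gene, so the test does not bear on gaps such as that between the ZH11 drought libraries. The comparisons were drought against normal in each genotype, OsJAZ1-OE against ZH11 in each condition, and the difference of the responses. Alternatives were DESeq2 1.42.0, limma-trend (limma 3.58.1) on log2(FPKM + 0.1) or log2(FPKM + 1), RLE size factors, no filter, a stricter filter (50 counts throughout a group), a fit restricted to the groups compared, a replicate block, the most abundant transcript, a log2 fold limit of 1, and each library left out. The factor divided out and the gene list counts and medians without either ZH11 drought library were added after seeing the data.

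The members and the gene lists were chosen with earlier results of these data known. Named genes are the 4 bHLH genes, OsJAZ1, of each list the 2 genes with the lowest adjusted p and the most expressed one that did not pass (given here for the JAZ, JA and qPCR lists under drought), and the 5 nearest profiles of each member, where annotated. The lists are other JAZ genes, JA synthesis and perception, JA-isoleucine breakdown, the qPCR list and genes tied to the factors in earlier work. The qPCR list leaves out OsCCD1 and the members OsbHLH006 and OsbHLH148. The breakdown genes and those of earlier work are counted without names, since no source used here annotates them. OsNCED4, OsDREB1A, OsDREB1B, SNAC1, RAB21, OsLEA3, OsJAZ3, OsJAZ5, OsJAZ7, OsJAZ8, OsJAZ10 and OsJAZ13 were described between replicates after their values were seen. Locus IDs not given by the study were set from general knowledge and checked against a RefSeq gene table (assembly ASM3414082v1). There 27 of the names matched by chromosome and position, 4 did not and 16 were not listed. Those that did not match were OsJAZ8, OsDREB1A, OsDREB1B and OsMYB30, so this check does not back their IDs. OsMYC2, OsbHLH006 and OsbHLH062 were among the names not listed. The bHLH family as a whole was not counted and no sequences are shown, for lack of an annotation used here.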

Additional observations from a re-analysis of the deposited data

How the results depend on the processing

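Each of the 20 values (4 genes in 5 comparisons) was recomputed under 11 alternatives and without each library, except that fitting only the groups compared gives no difference of the responses. Direction and call were the same in 360 of 416 recomputed values. Most of the 20 values did not pass in the main fit, so most of the unchanged ones are values that again did not pass. The fold limit cannot change such a value. For OsbHLH062 the drought call in ZH11 ended with DESeq2 (0.32, adjusted p = 0.053), limma-trend with a pseudocount of 0.1 (0.34) or 1 (0.31), the most abundant transcript (0.24), only the groups compared (0.32) and the fold limit (0.32). In OsJAZ1-OE it ended with DESeq2 and RLE size factors (0.31 each), the fold limit (0.31), limma-trend (0.34 and 0.31), the most abundant transcript (0.28), no filter (0.32), only the groups compared (0.31) and the stricter filter (0.30). Its near-zero values turned sign with the most abundant transcript, to 0.043 between the genotypes under drought, 0.0058 under normal conditions and 0.038 for the difference of the responses, which was 0.0012 and 0.0018 with limma-trend. OsbHLH006 passed between the genotypes under drought with no filter (−2.17, adjusted p = 0.017), and OsbHLH148 passed under drought in OsJAZ1-OE with no filter (1.61, adjusted p = 0.012) and with only the groups compared (1.60). With limma-trend (pseudocount 0.1) OsJAZ1-OE against ZH11 under drought was −1.38 for OsbHLH006 and −0.76 for OsbHLH148, smaller than in edgeR and not passing in either. Dividing out the library factor changed no call.

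With single libraries left out, the drought change in ZH11 ran from −0.10 to 0.46 for OsMYC2, 2.48 to 5.75 for OsbHLH006, 0.59 to 4.02 for OsbHLH148 and 0.24 to 0.39 for OsbHLH062. In OsJAZ1-OE it ran from 1.53 to 1.69 for OsbHLH148 and 0.17 to 0.44 for OsbHLH062. OsJAZ1-OE against ZH11 under drought ran from −0.55 to 0.0025 for OsMYC2, −3.03 to 0.24 for OsbHLH006, −2.58 to 0.85 for OsbHLH148 and −0.21 to 0.068 for OsbHLH062, which ran from −0.13 to 0.011 under normal conditions. The difference of the responses ran from −0.34 to 0.22 for OsMYC2, −2.09 to 1.19 for OsbHLH006, −2.42 to 1.02 for OsbHLH148 and −0.16 to 0.12 for OsbHLH062. The ends of the ranges of OsMYC2, OsbHLH006 and OsbHLH148 in ZH11 and between the genotypes under drought came from leaving out a ZH11 drought library, and the cause of the gap was not tested.

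Whether the replicate numbers pair the libraries could not be settled. Same-numbered libraries of different groups had correlations of −0.10 to 0.24 in their deviations from the group means, most of them above 0. Those with different numbers had −0.24 to 0.22. The deviations of the 2 libraries of a drought group mirror each other, so many of these values are not independent. With the replicate block only the OsbHLH062 call in OsJAZ1-OE ended (0.33, adjusted p = 0.061). With 2 drought libraries per genotype, no test can say which ZH11 library is closer to other ZH11 plants. The fragments of OsbHLH006 in the normal libraries limit its fold changes.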
